A study of Mus musculus with 9 samples.

Results

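The miR-181 family was followed across 9 microRNA arrays of mouse hippocampal neurons. Its members were taken by name, as the array features called exactly mmu-miR-181a, mmu-miR-181b, mmu-miR-181c and mmu-miR-181d, without the star names of the opposite hairpin arms. These are 4 of the 650 miRNAs on the array. The rule used names alone, though earlier results of these data were known when it was set.

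A miRNA is a short RNA that guides the silencing complex to messenger RNAs, mainly by pairing of its seed, bases 2 to 8 from the 5′ end, with the target. The miR-181 family is best known from lymphocytes, where miR-181a tunes T cell receptor sensitivity. In brain, miR-181a is abundant in hippocampus and acts on the messenger RNA of GluA2, the AMPA receptor subunit that limits calcium entry, and members of the family have been tied to the survival of neurons and astrocytes after ischemia.

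The family is encoded as 3 tandem pairs of genes in the RefSeq annotation of the mouse assembly GRCm38.p6. Mir181a-1 and Mir181b-1 lie 97 bases apart on the plus strand of chromosome 1, at chr1:137966455-137966541 and chr1:137966639-137966718, and no other annotated gene spans them. Mir181a-2 and Mir181b-2 lie 1019 bases apart on the plus strand of chromosome 2, at chr2:38852735-38852810 and chr2:38853830-38853918, within the bounds of Nr6a1 and its antisense transcript Nr6a1os. Mir181c and Mir181d lie 85 bases apart on the minus strand of chromosome 8, at chr8:84178873-84178961 and chr8:84178716-84178787. Both copies of miR-181a, and both copies of miR-181b, give the same mature RNA, so the array cannot tell which locus a signal came from.

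The mature sequences show how close the members are to each other. They are written from RefSeq, 5′ to 3′, with the seed in capitals, and all 4 members matched an entry.
miR-181a: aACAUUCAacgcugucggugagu
miR-181b: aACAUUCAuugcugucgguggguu
miR-181c: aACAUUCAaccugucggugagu
miR-181d: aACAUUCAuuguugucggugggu

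All 4 share the seed ACAUUCA, and of the 1679 mature miRNAs in the RefSeq table only these 4 carried it. Downstream of the seed the family splits into 2 close pairs. miR-181a and miR-181c differ by 1 edit (a substitution, insertion or deletion of a base), the deletion of 1 base in miR-181c, and share their last 12 bases. miR-181b and miR-181d differ by 2 edits, the substitution C12U, counted from the 5′ end of miR-181b, and the 3′ terminal base that only miR-181b has. Between the pairs the distance was 4 or 5 edits. miR-181a and miR-181b, which are encoded side by side, differ by A9U, C10U and A21G, counted from the 5′ end of miR-181a, and by the extra 3′ base of miR-181b.

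Neurons came from C57BL/6 mice on postnatal day 1 and were grown for 10 days in vitro. Control cultures were left untreated, other cultures received 20 µM NMDA for 4 h or 50 µM bicuculline for 4 h, with 3 arrays in each group. NMDA added to the bath activates NMDA receptors inside and outside synapses, whereas bicuculline, which blocks GABA-A receptors, raises firing and so drives synaptic receptors. The doses and times are those of the sample labels. The methods give a range of NMDA concentrations that includes the labelled one, and describe a brief exposure, washing and a return to the incubator for the stated time, so that for NMDA 4 h may be the time to harvest rather than the length of exposure. The study's results text gives a higher NMDA concentration for these profiles than the labels, and names glycine, a co-agonist, with it. The legend of the study's array table gives the labelled concentration. The methods describe the replicates as independent cell preparations.

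The arrays were printed on 2 slides. Slide 1 held control 1, control 2, NMDA 1, NMDA 2 and bicuculline 1, and slide 2 held control 3, NMDA 3, bicuculline 2 and bicuculline 3. Between 162 and 221 miRNAs per array were well above background and no spot was saturated. A response to each treatment was visible in other miRNAs. miR-212, which the transcription factor CREB induces together with miR-132, rose with bicuculline by 1.98 ± 0.29 (SE) on the log2 scale (limma adjusted p = 0.0228), miR-132 was higher by 0.64 ± 0.17 without passing (limma adjusted p = 0.386), and miR-689, whose standing as a miRNA is debated, rose with NMDA by 3.25 ± 0.32 (limma adjusted p = 0.00031). miR-689 was taken as a check because it is known to rise on these same arrays. Of the neuronal miRNAs miR-124, miR-9, miR-128, miR-137, miR-138 and miR-218, 6 of 6 were well above background on all 9 arrays, their summed signal running from 3587 to 3642% of the array scale in control, from 3333 to 3591% with NMDA and from 3281 to 3564% with bicuculline. None of the 5 immune cell miRNAs, miR-142-3p, miR-142-5p, miR-150, miR-155 and miR-223, and none of the 2 of vessel and red blood cells, miR-145 and miR-451, was well above background on any array. The oligodendrocyte miR-338-3p and the glial miR-21 were present on all arrays, while miR-219 and miR-143 were not well above background on any. miR-146a was so on 8. The summed signal of miR-219 and miR-338-3p ran from 38.5 to 49.0% in control, 36.7 to 47.7% with NMDA and 38.5 to 42.8% with bicuculline, and that of miR-21, miR-143 and miR-146a from 202 to 248%, 209 to 230% and 214 to 244%, with features below the floor counted at it. The part of glial cells in the values below was not tested.

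Levels are given as the signal of a member's brightest probe in percent of the array scale, the 75th percentile over those 265 probes whose signal stood clear of background on every array. All 4 members were well above background on all 9 arrays. Because probes differ in how they bind, a member's percentage is not compared with that of another member. In such cultures less of a miRNA per cell and fewer of the cells that hold it cannot be told apart.

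The miR-181a signal was 91.4, 90.3 and 71.0% in control 1 to 3, 92.1, 99.3 and 81.7% in NMDA 1 to 3, and 81.3, 71.3 and 74.0% in bicuculline 1 to 3. Control 3 lay below all bicuculline arrays and the other control arrays among the NMDA arrays, so control overlapped both treatments, while the lowest NMDA array lay just above the highest bicuculline array. The group means were 84.2 ± 11.4% (SD, n = 3), 91.0 ± 8.87% and 75.6 ± 5.17%.

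For miR-181c, the close relative of miR-181a encoded elsewhere, the signal was 19.1, 21.0 and 16.3% in control, 21.5, 22.5 and 19.8% with NMDA and 18.2, 17.8 and 17.7% with bicuculline. The order of the arrays was much like that of miR-181a, with control 3 low, NMDA 2 highest and all NMDA arrays above all bicuculline arrays. Its group means were 18.8 ± 2.37% (SD, n = 3), 21.3 ± 1.34% and 17.9 ± 0.279%.

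miR-181b, encoded beside miR-181a, gave 39.5, 38.9 and 37.5% in control, 36.3, 37.4 and 41.1% with NMDA and 36.5, 40.7 and 42.7% with bicuculline. All 3 groups overlapped, and the means of 38.6 ± 1.03% (SD, n = 3), 38.3 ± 2.51% and 40.0 ± 3.19% lay within the spread of the arrays.

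miR-181d, encoded beside miR-181c, gave 19.2, 19.8 and 19.8% in control, 17.3, 19.1 and 19.0% with NMDA and 17.0, 20.6 and 19.3% with bicuculline. The NMDA arrays all lay below the control arrays, by a narrow margin at NMDA 2, and the bicuculline arrays spanned both. The means were 19.6 ± 0.306% (SD, n = 3), 18.5 ± 1.04% and 19.0 ± 1.84%.

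**Figure D1:**
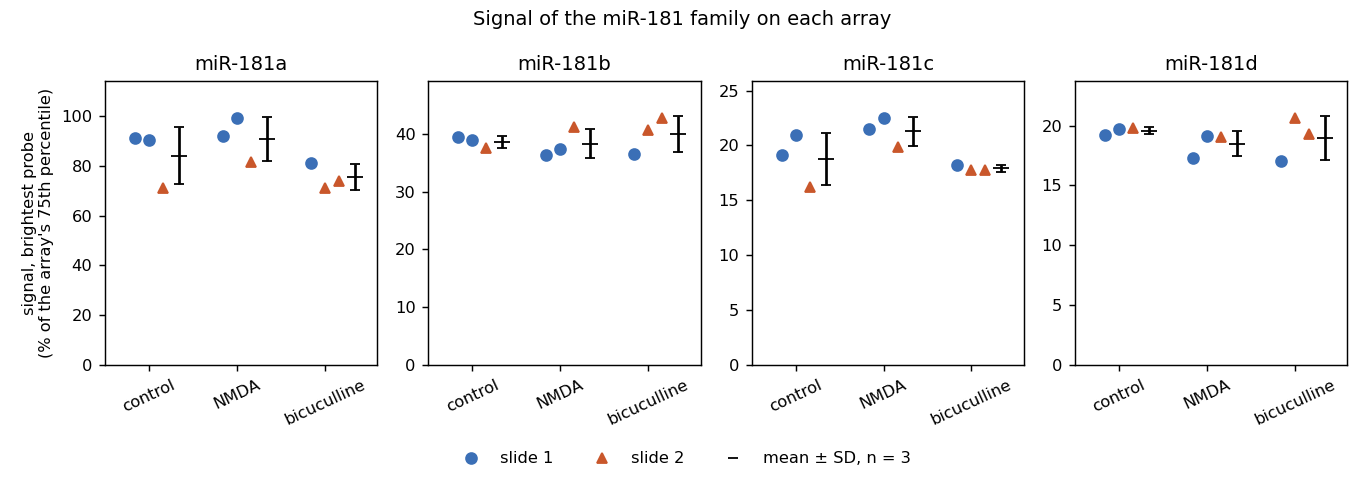
Signal of the brightest probe of each miR-181 member on each array, in percent of the array's 75th percentile (vertical axes from 0, each with its own range), for control, NMDA and bicuculline. Circles are arrays of slide 1, triangles arrays of slide 2, and the bars give the mean ± SD of 3 arrays; for miR-181a and miR-181c the NMDA arrays lie above the bicuculline arrays, and for miR-181b and miR-181d these groups overlap.

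The first comparison asked whether NMDA altered the family. None of the 4 members passed, with 0 of 4 at a limma adjusted p under 0.05 against 8.29% of the 181 miRNAs tested, and 0 of 4 at an unadjusted p under 0.05 against 11%. Both shares include miRNAs that were not well above background on every array. Of the 156 that were, as the members were, 3 passed in a limma fit after adjustment and 8 unadjusted. On the log2 scale, NMDA minus control was 0.18 ± 0.11 (SE) for miR-181c (95% interval -0.08 to 0.45, limma adjusted p = 0.917) and 0.12 ± 0.13 for miR-181a (-0.18 to 0.41, adjusted p = 0.991). It was -0.01 ± 0.08 for miR-181b (-0.21 to 0.18) and -0.09 ± 0.08 for miR-181d (-0.27 to 0.10), both with a limma adjusted p of 0.991. In this fit without pairing and with this scaling, the 4 intervals together run from -17.1% (miR-181d) to 36.4% (miR-181c). The groups did not overlap for 1 of 4 members, miR-181d, against 14.9% of all miRNAs tested. The median over the members was 0.05, beside -0.01 over all 181. The same-numbered NMDA and control arrays lay on the same slide and deviated together. A shared preparation and a shared slide cannot be told apart here. Taken as 3 pairs, miR-181a and miR-181c were higher with NMDA in 3 of 3 pairs and miR-181d was lower in 3 of 3, while miR-181b was lower in 2 and higher in 1. The first miR-181a pair differed by only 0.011. The share of all 181 miRNAs whose 3 pairs had the same sign was not counted, so these counts have no background. With the replicate number as a block, 0 of 4 members passed a limma adjusted p under 0.05, and 1 of 4, miR-181c, passed at an unadjusted p under 0.05, where 19.9% of all 181 miRNAs did. Its p in this blocked limma fit was 0.0268 (limma adjusted p = 0.187). The SE in the blocked fit was 0.05 for miR-181a and miR-181c, 0.07 for miR-181b and 0.04 for miR-181d.

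The NMDA values depended on scaling and on 1 array. Quantile normalization, which moved the median of all miRNAs to -0.13, gave miR-181d -0.33 (limma adjusted p = 0.015) and turned miR-181c to -0.050. In the authors' own normalized values miR-181d was at -0.12 (limma unadjusted p = 0.0112, adjusted p = 0.0848), beside a median of -0.05 over all miRNAs. Its NMDA arrays (7.59 to 7.62) lay below its control arrays (7.7 to 7.75) there. Scaling to all probes rests on a value near background. On the median array, the lowest probe well above background stood at 286% of it. This scaling moved the median of all miRNAs to -0.43. It gave miR-181a -0.31 and miR-181c -0.24, that is 0.12 and 0.19 relative to that median. Without control 3, miR-181a was at -0.0016 and miR-181c at 0.084.

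Bicuculline against control, the contrast of raised synaptic activity, left the family short of the threshold too. None of the 4 members passed at a limma adjusted p under 0.05 (0.621% of 161 miRNAs did), none at an unadjusted p under 0.05 (1.24%), and no member had groups that did not overlap (3.11%). The log2 difference was -0.15 ± 0.12 (SE) for miR-181a (95% interval -0.43 to 0.13), 0.05 ± 0.09 for miR-181b (-0.17 to 0.26), -0.06 ± 0.11 for miR-181c (-0.31 to 0.19) and -0.05 ± 0.10 for miR-181d (-0.27 to 0.18), each with a limma adjusted p of 0.999. In percent the 4 intervals reached from -25.7% (miR-181a) to 19.8% (miR-181b). The members' median was -0.06, beside -0.02 over all miRNAs tested.

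In the direct comparison of the treatments miR-181a and miR-181c had the larger differences, and no member passed after adjustment. NMDA minus bicuculline was 0.27 ± 0.10 (SE) on the log2 scale for miR-181a (95% interval 0.02 to 0.51, unadjusted p = 0.0352, limma adjusted p = 0.289), 20.3% higher. For miR-181c it was 0.25 ± 0.08 (0.06 to 0.44, unadjusted p = 0.0182, limma adjusted p = 0.173), 18.7% higher. The same difference was -0.06 ± 0.10 for miR-181b (-0.29 to 0.16) and -0.04 ± 0.10 for miR-181d (-0.27 to 0.20), with a limma adjusted p of 0.99 for both. So 0 of 4 members passed after adjustment (8.84% of 181 miRNAs did), while 2 of 4 passed unadjusted, where 13.3% of all miRNAs did, and the same 2 had groups that did not overlap, also 13.3% over all miRNAs. Of the 156 miRNAs well above background on every array, as the members were, 3 passed after adjustment. Ordered by p over the 181 miRNAs, miR-181c stood at place 19 and miR-181a at place 22. Both treatments were compared with the same 3 control arrays, so the contrasts with control are not independent of each other. The sign depended on the scale. An alternative divided each array by the 75th percentile of all its probes. On the median array, this scale lay below every probe well above background, the lowest of which stood at 286% of it. With it the median of all miRNAs moved to -0.47. The difference was then -0.21 for miR-181a and -0.23 for miR-181c. For miR-181b and miR-181d it was -0.54 and -0.52 (limma adjusted p = 0.00743 for both). Relative to that median, miR-181a and miR-181c lay 0.26 and 0.24 above it, and miR-181b and miR-181d were at -0.07 and -0.04 from it. In the authors' own normalized values the difference was 0.10 for miR-181a (limma adjusted p = 0.325) and 0.0033 for miR-181c. There NMDA 3 lay below bicuculline 1 for miR-181a (8.39 and 8.43), and the treatments also overlapped for miR-181c. The separation of the treatments was thus not seen there for either. In those values miR-181b and miR-181d were at -0.12 and -0.10 (limma adjusted p = 0.111 and 0.212).

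**Figure D2:**
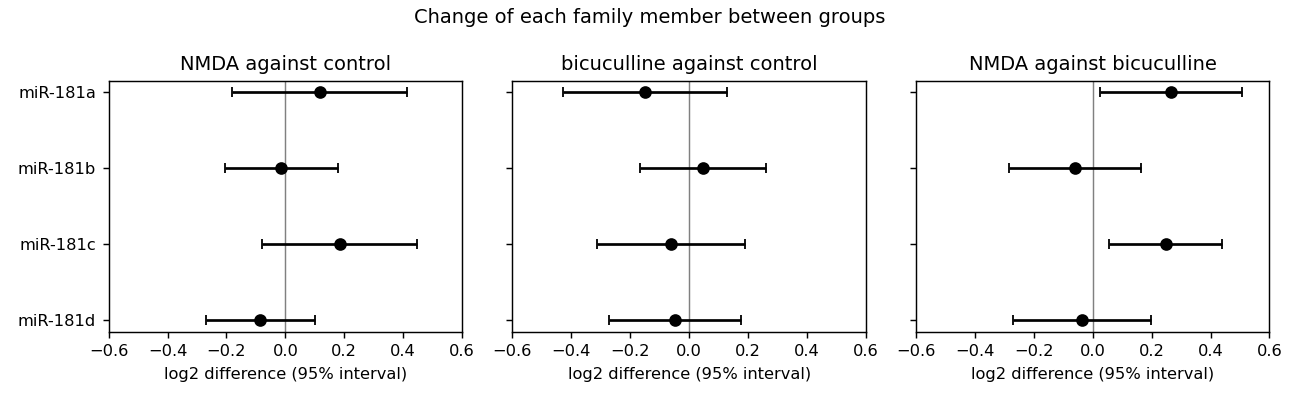
Log2 difference between groups for each miR-181 member in the 3 comparisons, with the 95% interval of the limma fit of 3 against 3 arrays. Intervals cross 0 everywhere except for miR-181a (0.02 to 0.51) and miR-181c (0.06 to 0.44) in NMDA against bicuculline, and none of the differences passed after adjustment.

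Whether members responded differently from each other was tested on the within-array log2 difference of each pair, over 6 pairs and 3 comparisons, with an exact two-sided permutation test over arrays. None of the 18 passed. With 3 arrays against 3 this test cannot give a p under 0.1, and the lowest p seen was 0.2 (0.491 after Benjamini-Hochberg adjustment over the 18). From bicuculline to NMDA, miR-181a gained 0.33 more than miR-181b on the log2 scale (exact p = 0.2) and 0.30 more than miR-181d (exact p = 0.2), and miR-181c gained 0.31 more than miR-181b and 0.28 more than miR-181d, also at an exact p of 0.2. Within the pairs the difference of the changes was 0.02 for miR-181a and miR-181c (exact p = 0.8) and -0.02 for miR-181b and miR-181d (exact p = 0.6). The array values of every pair overlapped between the treatments.

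The slide moved with these values. The median local background was 102.5 to 112 on the arrays of slide 1 and 60.5 to 63 on those of slide 2. The version of the Agilent Feature Extraction software also differed between the slides. Slide, background and version cannot be told apart. With group in the model, arrays of slide 2 were lower than those of slide 1 by a log2 difference of -0.25 ± 0.05 (SE) for miR-181a (limma adjusted p = 0.0152) and -0.16 ± 0.06 for miR-181c (adjusted p = 0.0802), and higher by 0.10 ± 0.06 for miR-181b (adjusted p = 0.265) and 0.11 ± 0.06 for miR-181d (adjusted p = 0.233). Thus 1 of 4 members passed for the slide, where 26.3% of the 156 miRNAs present on all arrays did. Slide 2 held more of the bicuculline arrays than of the NMDA arrays. Within slide 1, NMDA minus bicuculline was 0.23 for miR-181a and 0.27 for miR-181c (2 arrays against 1), and within slide 2 it was 0.17 and 0.16 (1 against 2). With slide as a block the differences were 0.20 (limma adjusted p = 0.183) and 0.22 (adjusted p = 0.141), so both stayed positive within each slide. For miR-181b the within-slide values were 0.02 and -0.02, and for miR-181d 0.10 and -0.07.

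Against control, the within-slide values of NMDA were 0.07 and 0.20 for miR-181a and 0.13 and 0.29 for miR-181c on slides 1 and 2. They were -0.09 and 0.13 for miR-181b and -0.10 and -0.06 for miR-181d. For bicuculline against control they were -0.16 and 0.03 for miR-181a, -0.10 and 0.15 for miR-181b, -0.14 and 0.13 for miR-181c, and -0.20 and 0.02 for miR-181d, so each member was lower with bicuculline on slide 1 and higher on slide 2.

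Spots of the brightest probes also scattered more on slide 2. Each member was printed as 2 probes of 10 spots each. The coefficient of variation of the spots of the brightest miR-181a probe was 1.44 to 4.96% on the 5 arrays of slide 1 and 16.6 to 31.8% on the 4 arrays of slide 2. For miR-181c it was 5.20 to 9.19% and 12.1 to 24.7%, for miR-181b 2.87 to 8.39% and 8.73 to 16.4%, and for miR-181d 5.59 to 12.3% and 9.71 to 24.5%. The dimmer second probe of miR-181d did not follow this, at 15.2 to 26.2% on slide 1 and 11.8 to 22.5% on slide 2. The part of this scatter in the slide difference of miR-181a was not tested.

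The second, dimmer probe of each member gave a further reading. It was well above background on 9 arrays for miR-181a and miR-181b, on 7 for miR-181c and on only 3 for miR-181d. For miR-181a it gave a log2 difference of 0.05 for NMDA minus control, -0.18 for bicuculline minus control and 0.23 for NMDA minus bicuculline, the signs of the brightest probe. For miR-181c it gave 0.12, -0.07 and 0.19, again with the same signs. That probe stood at only 6.95 to 10.3% of the array scale, around the floor of 7.94%, so its reading is weak. For miR-181b it gave 0.01, -0.07 and 0.07, where the brightest probe had the opposite sign each time at sizes of up to 0.06. The second miR-181d probe, at 4.76 to 7.90% of the array scale, was too near background for its differences to be read. The probes thus gave the same signs for miR-181a in all 3 comparisons, and for miR-181b in none. For miR-181c the signs were also the same in all 3, with the second probe near background.

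**Figure D3:**
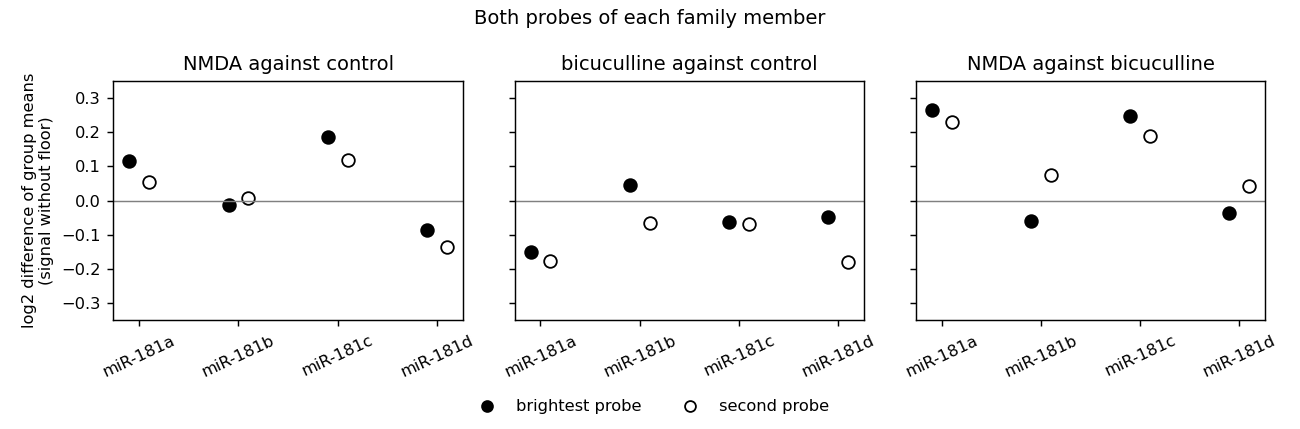
Log2 difference of the group means of signal, without the floor, for the brightest probe (filled) and the second probe (open) of each miR-181 member in the 3 comparisons. Both probes of miR-181a and of miR-181c lie above 0 in NMDA against bicuculline (0.27 and 0.23, 0.25 and 0.19), those of miR-181b lie on both sides of 0, and the open point of miR-181d is near background and is not read.

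The profiles over the 9 arrays, each member centred on its own mean, hold the group, the slide and the single array together. In them miR-181a and miR-181c were 0.069 apart (root mean square distance on the log2 scale). Among the 155 other miRNAs present on all arrays, each was the closest to the other, and 3.13% of all 12090 pairs of miRNAs were closer. miR-181b and miR-181d were 0.072 apart, with 3.66% of all pairs closer, and stood at place 15 and place 11 in each other's order. This distance is also small for miRNAs that both vary little, as these did. The Pearson correlation of the profiles was 0.62 for miR-181b and miR-181d and 0.91 for miR-181a and miR-181c. The pairs encoded side by side were farther apart, at 0.21 for miR-181a and miR-181b (64.8% of all pairs closer) and 0.19 for miR-181c and miR-181d (54.6%), against a median of 0.18 over all pairs. The remaining pairs, miR-181a with miR-181d and miR-181b with miR-181c, lay at 0.21 and 0.18. These distances are descriptions, and arrays of the same slide are not independent.

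Restricted to slide 1, miR-181c stood at place 3 for miR-181a and miR-181a at place 2 for miR-181c, and the places were the same on slide 2. For miR-181b and miR-181d the places were 32 and 11 on slide 1, and 54 and 76 on slide 2, with a Pearson correlation of 0.87 and -0.26. With 1 array left out at a time, miR-181a and miR-181c each stayed at place 1 or 2 for the other.

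With the slide and group means removed the order of the pairs turned. miR-181a and miR-181b, encoded side by side, were then the closest pair of the family at 0.024 (places 4 and 2, 0.579% of all pairs closer). miR-181c and miR-181d were at 0.041 (places 7 and 8), miR-181a and miR-181c also at 0.041 (places 14 and 5, 4.12% of all pairs closer), and miR-181b and miR-181d were the farthest apart at 0.059 (places 34 and 28, 13.7% of all pairs closer). The processing mattered too. In the authors' normalized values miR-181c stood at place 9 for miR-181a and miR-181a at place 68 for miR-181c, and after normexp background correction at places 4 and 23. With the total gene signal miR-181b and miR-181d were 0.17 apart and stood at places 83 and 50. In the authors' values the side-by-side pairs were 0.12 apart for miR-181a and miR-181b (69.3% of all pairs closer) and 0.065 for miR-181c and miR-181d (23.5%). The members of each close pair also have the most similar sequences, and whether the probes of one bound the other was not tested.

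**Figure D4:**
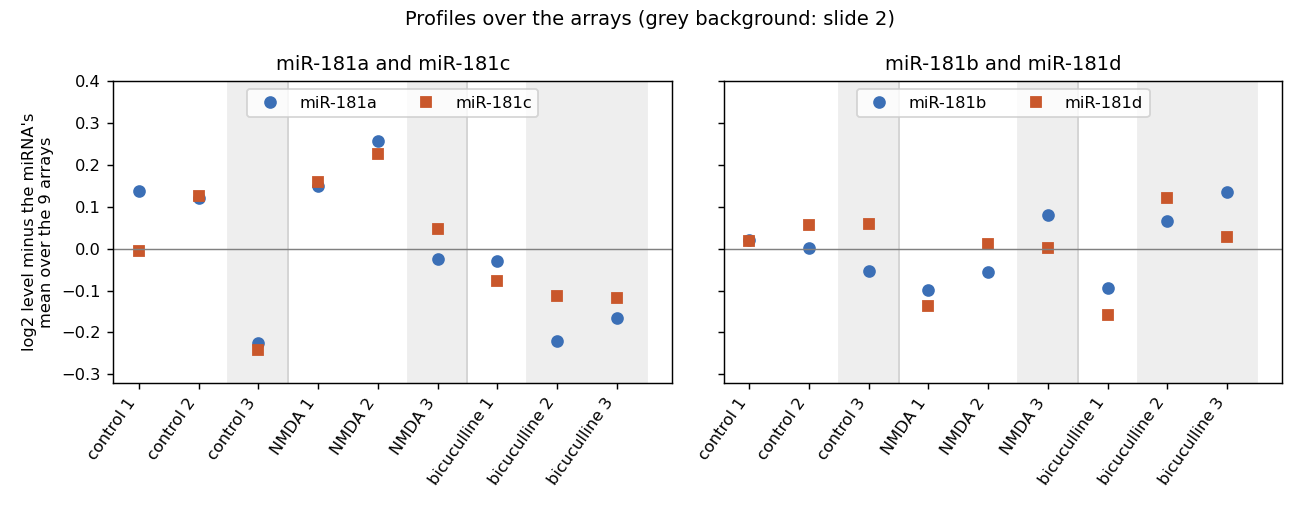
Log2 level of each miR-181 member on the 9 arrays minus that member's own mean, with miR-181a and miR-181c on the left and miR-181b and miR-181d on the right, and arrays of slide 2 on a grey background. miR-181a and miR-181c lie close to each other on most arrays, from low values at control 3 (-0.23 and -0.24) to the highest at NMDA 2 (0.26 and 0.23), and miR-181b and miR-181d stay between -0.16 and 0.13.

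**Figure D5:**
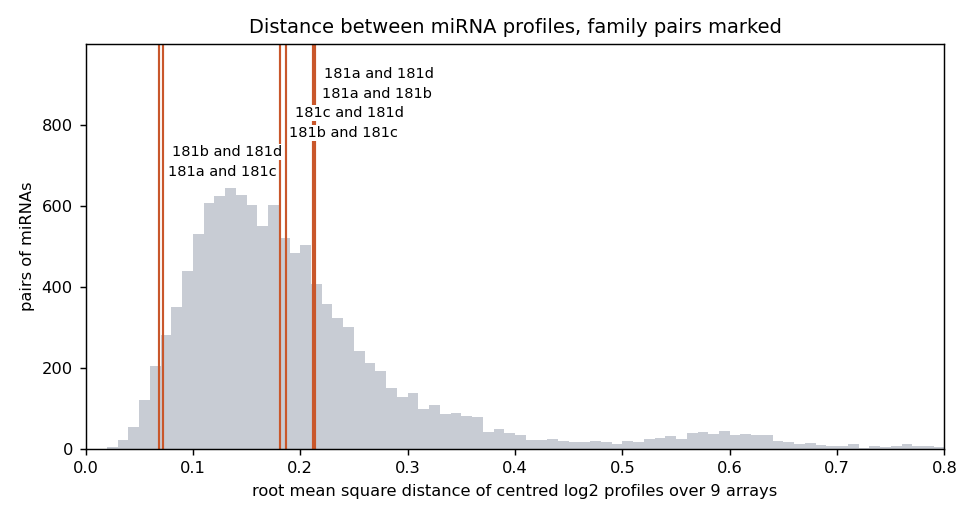
Histogram of the root mean square distance between the centred log2 profiles of 2 miRNAs over the 9 arrays, for all 12090 pairs of the 156 miRNAs present on every array, with the 6 pairs of miR-181 members as vertical lines. The axis ends at 0.8, and 401 pairs lie beyond it. The pairs miR-181a with miR-181c (0.069) and miR-181b with miR-181d (0.072) lie toward the left, and the other 4 lie between 0.18 and 0.21.

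Taken over all arrays, the spread of the members lay inside the range of the other miRNAs. The SD of the log2 level over 9 arrays was 0.18 for miR-181a and 0.15 for miR-181c, at places 121 and 100 from the steadiest of 156 miRNAs. It was 0.08 for miR-181b and 0.09 for miR-181d, at places 35 and 44, with a median of 0.13 over the 156.

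The mean profile of the 4 members ranged from -0.12 at control 3 to 0.11 at NMDA 2. The miRNAs outside the family with the most similar profile over the 9 arrays were miR-434-5p (distance 0.043), miR-26b (0.064), miR-99b (0.067), miR-16 (0.069) and miR-496 (0.072), against a median of 0.14 over the 152 candidates. None of these 5 passed in any of the 3 comparisons (limma adjusted p = 0.99 at the lowest), their differences lying between -0.11 and 0.07. They were chosen on these same arrays for closeness to a mean with a narrow range. This outcome was therefore largely set by the choice.

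The opposite arms of the miR-181a hairpins were dim. The brightest miR-181a-1* probe gave 8.37, 9.01 and 8.08% in control, 9.001, 7.36 and 7.22% with NMDA and 8.16, 7.16 and 5.55% with bicuculline, and was well above background on 7 arrays. miR-181a-2* was not well above background on any array. In RefSeq these arms are named miR-181a-1-3p and miR-181a-2-3p, and unlike the mature miR-181a they differ between the loci, so that this is the only reading here that would tell the chromosome 1 copy from the chromosome 2 copy:
miR-181a-1*: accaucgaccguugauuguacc
miR-181a-2*: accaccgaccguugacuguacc

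Other miRNAs known to act on the messenger RNAs of AMPA or NMDA receptor subunits gave the setting for the family. Of 8 such miRNAs (miR-124, miR-125b-5p, miR-137, miR-92a, miR-186, miR-218, miR-223 and miR-501-3p), 5 were measured well enough to be tested and 0 passed in any comparison, neither at a limma adjusted p nor at an unadjusted p under 0.05. Their median log2 difference was -0.01 for NMDA minus control, -0.05 for bicuculline minus control and 0.02 for NMDA minus bicuculline, beside -0.01, -0.02 and 0.0018 over all miRNAs tested. With NMDA, miR-218 was at -0.05 ± 0.08 (SE) and miR-92a, which acts on GluA1, at -0.04 ± 0.13 (limma adjusted p = 0.991 for both). With bicuculline they were at -0.06 ± 0.08 and 0.13 ± 0.14 (limma adjusted p = 0.999 for both).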

How the data were processed

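One-colour Agilent miRNA arrays of 9 cultures, 3 per group by the sample titles, were used. The authors deposited the scanner output, whose spot intensity had been background-subtracted by Agilent Feature Extraction (10.7.1.1 on slide 1, 10.7.3.1 on slide 2), and a table of their own normalized log2 values, whose normalization is not given in the sources used here. On the 156 miRNAs present on all arrays, its column medians were 7.06 to 7.08 and its ranks followed the scanner values (Spearman 0.965 to 0.978).

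Of the non-control spots, 3278 flagged as outliers were left out and the spots of a probe averaged. A probe passed the background criterion if 50% or more of its spots carried the mark for it. Each array was scaled to the 75th percentile over 265 probes that met this everywhere, a floor of 7.94% was applied before log2, and the brightest probe stood for its miRNA. Each comparison used a limma fit (3.58.1, R 4.3.3) of its 6 arrays with no covariates, restricted to miRNAs that met the background criterion throughout 1 or both groups, two-sided, with Benjamini-Hochberg adjustment and a threshold of 0.05. The step was tested on simulated data with changes larger than any seen in the members and without a slide difference. That test does not cover changes of the members' size. Precision is limited by the number of arrays.

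Members and lists were chosen with earlier results of these data known. Named miRNAs were the members, the star arms, the 5 closest profiles, miR-132, miR-212 and miR-689 as response checks, the marker miRNAs, and the receptor list with its 2 lowest p per treatment.

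Over 156 miRNAs, deviations from the group means of same-numbered arrays correlated at 0.36, 0.76 and 0.63 for NMDA and control, at 0.59, 0.08 and 0.72 for bicuculline and control, and at 0.62, -0.03 and 0.72 for NMDA and bicuculline. The lowest of each of the last 2 sets is the pair on different slides. The numbers were taken to pair NMDA with control, where all 3 passed 0.1, and not the other groups. Each NMDA and control pair shares a slide, and arrays of different numbers on the same slide were not compared. The check therefore cannot tell a shared preparation from a shared slide.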

Additional observations from a re-analysis of the deposited data

How the results depend on the processing

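Over 228 refits of the 12 member differences, 203 kept their direction and stayed short of the threshold, 22 changed sign and 3 passed it. Scaling to all probes, which moved the median of all miRNAs by -0.43 and -0.47 in the comparisons with NMDA, gave for NMDA against control -0.31 (miR-181a) and -0.24 (miR-181c), for bicuculline against control 0.0068 (miR-181d), and for NMDA against bicuculline -0.21 (miR-181a), -0.23 (miR-181c), -0.54 (miR-181b) and -0.52 (miR-181d), the last 2 called. Quantile normalization gave -0.33 (miR-181d, called) and -0.050 (miR-181c) for NMDA against control and -0.013 (miR-181c) for NMDA against bicuculline. For miR-181c, the authors' table gave -0.0033 for NMDA against control and the total gene signal 0.070 for bicuculline against control. The mean of both probes put miR-181b at -0.010 for bicuculline against control and 0.0067 for NMDA against bicuculline. Normexp put miR-181d at 0.00068 for bicuculline against control, and slide as a block put it at 0.013 for NMDA against bicuculline. The cause of these shifts was not tested.

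Leaving out 1 array at a time, NMDA minus control ran from -0.0016 to 0.19 for miR-181a, the low end without control 3, from -0.066 to 0.023 for miR-181b, from 0.08 to 0.27 for miR-181c and from -0.11 to -0.04 for miR-181d. Bicuculline minus control ran from -0.27 to -0.09 for miR-181a, from -0.0031 to 0.11 for miR-181b, from -0.16 to 0.021 for miR-181c and from -0.11 to 0.029 for miR-181d. NMDA minus bicuculline ran from 0.20 to 0.34 for miR-181a, from -0.13 to -0.01 for miR-181b, from 0.21 to 0.30 for miR-181c and from -0.11 to 0.025 for miR-181d. No member was called in these fits, where limma adjusted p was 0.0903 at the lowest.

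With the replicate number as a block, the differences keep their size by construction. No member was called, and limma adjusted p fell to 0.187 for miR-181c in NMDA against control and to 0.0786 in NMDA against bicuculline. The numbers were not taken to pair bicuculline with the other groups, so the blocked fits with bicuculline rest on no pairing. The block called 17, 2 and 17 miRNAs in NMDA against control, bicuculline against control and NMDA against bicuculline, beside 15, 1 and 16 without it.

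Counts of members called were 0 in each comparison under all alternatives except 1 for NMDA against control under quantile normalization and 2 for NMDA against bicuculline under scaling to all probes. Counts over all miRNAs moved more. For NMDA against control they were 26 with quantile normalization, 5 with the total gene signal, 3 with miRNAs present on all arrays and 5 with no filter. For bicuculline against control they were 0 under these 4 settings and under the methods' t-test, and from 0 to 1 with 1 array left out (0 without bicuculline 1 or bicuculline 2). For NMDA against bicuculline they were 143 with scaling to all probes (127 of them lower with NMDA), 27, 8, 3 and 8 under the same 4 settings, and 10 with the methods' t-test. With that test, 0 members passed unadjusted against control and 1 did in NMDA against bicuculline. Signal over background limits miR-181d most, whose second probe was well above background on 3 arrays.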
